A study of Mus musculus with 27 samples.

Results

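The transcription factors Foxo1, Foxo3, Foxp1, Bach2, Klf3, Zeb1, Tox and Myb, which hold T cells in quiescence or shape memory and exhaustion, were followed by symbol through 27 RNA-seq libraries of mouse CD8 T cells, as 8 of the 35275 genes of the deposited tables. P14 cells express 1 transgenic receptor that recognises gp33, a peptide of the virus LCMV, and the question was how the dose of let-7 microRNAs shapes CD8 T cell fate. WT P14+ cells were compared with Lin28bTg P14+ cells (lin28Tg), in which the Lin28 protein blocks the maturation of let-7, and with Let-7Tg P14+ cells (let-7Tg), which carry a let-7g transgene at the Col1a1 locus that doxycycline switches on. Cells from lymph nodes were taken untreated at 0 h (naive), after 12 h with anti-CD3 at 2 μg/ml and anti-CD28 at 5 μg/ml, or as cytotoxic T lymphocytes (CTLs) at 5 days, after stimulation with irradiated splenocytes and anti-CD3 at 2 μg/ml and with IL-2 at 100 U/ml from 48 h. Each of the 9 groups held 3 biological replicates. All lines were on a Rag2-/- background, mice were 6 to 10 weeks old and of both sexes, and mice of all genotypes, controls included, drank doxycycline at 2 mg/ml for 4 days before use, with 2 μg/ml doxycycline in the cultures. The lin28 transgene is already expressed in the thymus, so lin28Tg cells developed with it, whereas let-7g was induced in grown mice. Stage, culture and the handling of each stage cannot be told apart.

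Quiescence of naive T cells is an actively held state. FOXO factors stay in the nucleus of resting T cells, where they drive genes of homing and survival such as Ccr7, Il7r and Klf2, and leave it when antigen receptor and cytokine signals activate Akt and SGK kinases. Foxp1 is a forkhead repressor that keeps naive T cells from responding to IL-7 and from dividing. Bach2 blocks AP-1 sites and so restrains effector genes, Klf3 is a repressor that binds CACCC elements, Zeb1 is a zinc finger repressor needed for memory CD8 T cells, Tox is an HMG box factor of thymic selection and of exhausted CD8 T cells, and Myb supports proliferation and stem-like CD8 T cells.

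Lin28b was at or below 0.0590 FPKM in all WT and let-7Tg libraries and between 9.94 and 67.9 FPKM in the lin28Tg libraries, and Col1a1 was higher in every let-7Tg library (9.06 to 62.8 FPKM) than in any other (at most 4.93 FPKM). FPKM, the unit of the deposited values, counts fragments per kilobase of gene and scales them to the size of the library. Libraries held 13862706 to 23591069 counted reads. The CD8 T markers Cd8a, Cd8b1, Cd3d, Cd3e, Cd3g and Thy1 were detected in all 9 groups, with summed levels of 3220.4 to 3596 FPKM in naive lin28Tg and 3625 to 4160.5 FPKM in naive WT libraries. Markers of other cells moved with genotype in naive cells. Of 8 myeloid markers all were detected in both groups, with sums of 149 to 910 FPKM in naive lin28Tg against 28.8 to 48.2 FPKM in naive WT libraries, and 5 erythroid markers summed to 494 to 1994 against 153 to 292 FPKM. The naive lin28Tg replicate 2 carried the highest of both. Erythroid sums were lower in naive let-7Tg libraries, at 1.88 to 38.6 FPKM, and at 12 h were 83.3 to 693 FPKM in lin28Tg, 26.1 to 103 FPKM in WT and 0.774 to 4.34 FPKM in let-7Tg cells. The sums were also higher for 3 NK and innate (108 to 391 against 35.6 to 72.5 FPKM), 3 CD4 T (21.9 to 81.3 against 6.93 to 15.9 FPKM), 6 B (30.4 to 35.8 against 19.2 to 21.8 FPKM) and 4 stromal markers (2.33 to 8.30 against 0.893 to 1.29 FPKM), while those of 6 thymocyte markers overlapped. Of those thymocyte and progenitor markers, Kit was higher in naive lin28Tg than in naive WT cells (5.36 to 14.5 against 1.81 to 3.36 FPKM). So was Cd34 (0.221 to 0.300 against at most 0.0278 FPKM). Dntt (5.2 to 6.77 against 8.2 to 14.1 FPKM) and Rag2 (0.128 to 0.321 against 0.322 to 0.360 FPKM) were lower, and Rag1 and Ptcra overlapped. Of the B markers, Pax5 had no reads in naive WT cells. The B sum was carried by Cd79b (27.7 to 31.0 against 17.1 to 19.6 FPKM). Cd79a was lower in naive lin28Tg than in naive WT cells (1.07 to 1.43 against 1.65 to 2.00 FPKM). So were Pdgfrb of the stromal markers (0.368 to 0.532 against 0.598 to 1.14 FPKM) and Foxp3 of the CD4 T markers (0.0913 to 0.219 against 0.401 to 0.445 FPKM). In day 5 CTLs the myeloid sum was at most 3.56 FPKM, and the NK and innate sum was 64.5 to 163 FPKM in lin28Tg CTLs, against 9.40 to 42.6 FPKM in WT and 2.52 to 5.57 in let-7Tg CTLs. That sum was carried by Klrb1c (60.8 to 158 FPKM in lin28Tg CTLs), while Ncr1 was at most 0.0305 FPKM there and Tyrobp overlapped WT (1.57 to 5.27 against 1.06 to 3.03 FPKM). The part of these cells in the differences below was not tested, and in bulk RNA fewer expressing cells and less RNA per cell cannot be told apart.

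Let-7 microRNAs pair with messages through their seed. Shown with the seed in capitals are the induced let-7g and, for comparison, let-7a, which share that seed (RefSeq, GRCm38.p6, chr9:106178846-106178867 on the plus strand and chr13:48538239-48538260 on the minus strand).
mmu-let-7g-5p: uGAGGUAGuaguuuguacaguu
mmu-let-7a-5p: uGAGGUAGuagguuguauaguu
The DNA letters that pair with this seed are CTACCTC. They occurred 0 times in the 3′ UTR of each of the 8 factors, searched in 1 coding transcript per gene of GENCODE M21, with UTRs of 1238 (Myb) to 6240 bases (Foxo1). Of all 21123 genes searched 8.02% held the letters, and of the 12718 among genes tested 9.27%, so an absence is the usual case over all genes. These shares cover UTRs of all lengths and were not matched to the lengths of the factors' UTRs. Other transcripts, shorter seed matches and sites outside the 3′ UTR were not searched.

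The genes lie on GRCm38 chromosomes 3 (Foxo1, 52268336 to 52353221, plus strand), 10 (Foxo3, 42181841 to 42276755, minus strand, and Myb, 21124935 to 21160984, minus strand), 6 (Foxp1, 98925338 to 99522721, minus strand), 4 (Bach2, 32238804 to 32586108, plus strand, and Tox, 6686353 to 6991557, minus strand), 5 (Klf3, 64803388 to 64832901, plus strand) and 18 (Zeb1, 5591860 to 5775467, plus strand). FPKM values count reads over the exons of each gene. Transcripts on the opposite strand overlap Bach2 (Bach2os, at most 86 reads in a library) and Klf3 (Gm20033, at most 99 reads), each with counts of its own. Others with fewer reads overlap Foxo1, Zeb1, Tox and Myb (at most 28), and Gm20696 overlaps Foxp1 on the same strand (at most 27). The counting is not stated to use strand, so how reads in the shared bases were counted cannot be told. The promoters of Klf3, the factor with the largest fall, and of Myb, the only factor that rose to its highest level in CTLs, are shown for the elements of the factors themselves, with KLF elements (CACCC or GGGTG) and forkhead elements (GTAAACA or TGTTTAC) in capitals (RefSeq, GRCm38.p6, chr5:64803271-64803570 on the plus strand and chr10:21160935-21161234 on the minus strand).
Klf3: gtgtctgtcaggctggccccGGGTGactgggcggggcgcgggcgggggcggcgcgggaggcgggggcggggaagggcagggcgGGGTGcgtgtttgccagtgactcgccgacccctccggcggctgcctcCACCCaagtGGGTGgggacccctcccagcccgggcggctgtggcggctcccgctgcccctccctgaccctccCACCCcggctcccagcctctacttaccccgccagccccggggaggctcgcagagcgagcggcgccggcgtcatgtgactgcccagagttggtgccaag
Myb: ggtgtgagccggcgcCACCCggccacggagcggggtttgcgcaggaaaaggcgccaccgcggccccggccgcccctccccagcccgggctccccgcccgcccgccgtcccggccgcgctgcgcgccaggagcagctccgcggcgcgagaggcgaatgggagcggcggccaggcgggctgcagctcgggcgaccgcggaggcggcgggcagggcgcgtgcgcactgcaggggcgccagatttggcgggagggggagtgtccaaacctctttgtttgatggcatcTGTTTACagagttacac
The Klf3 window held 5 KLF elements and no forkhead element. The Myb window held 1 of each, and no other promoter found for the factors (Foxo1, Foxo3, Bach2 and 3 starts of Foxp1) held a forkhead element. The Foxp1 windows held 3, 0 and 2 KLF elements, and those of Foxo1, Foxo3 and Bach2 held none. Over all 32851 promoters of that length 57.5% held a KLF element and 3.65% a forkhead element. The reference held no promoter of Tox or Zeb1, so these were not searched. The ZEB element CAGGTA or TACCTG was in none of the windows found for the other factors and in 12.0% of all promoters. A match in letters is not a bound site.

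In naive cells most of the factors were lower in lin28Tg than in WT cells, while let-7Tg and WT cells did not separate. Compared with WT, lin28Tg cells had lower levels of 6 of 8 factors, Bach2, Foxp1, Tox, Foxo1, Klf3 and Foxo3, and a higher level of none (limma, adjusted p under 0.05, here called). Of all 13277 genes tested 33.1% were called, 13.4% lower. The median log2 fold change was -0.58 over the factors and -0.016 over all genes tested. Between let-7Tg and WT none of the 8 was called by limma or by limma with voom weights (1 at an unadjusted p under 0.05, 0.791% of all genes called). Directly against let-7Tg, lin28Tg cells were lower in the same 6 factors (43.4% of all genes called, 19.8% lower), a comparison that shares the lin28Tg libraries with the first. Without the naive lin28Tg replicate 2, whose myeloid and erythroid sums were the highest, 5 of the 6 falls against WT kept their call, and Foxo3 did not (log2 fold change -0.28, limma adjusted p = 0.0538).

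At 12 h 2 of the factors were called between lin28Tg and WT. Lin28Tg cells were lower than WT in 2, Tox and Foxp1 (8.35% of 12239 genes called, 2.38% lower), and let-7Tg cells were lower in 1, Klf3 (3.18% called, 1.75% lower). These libraries were paired by number, and with the replicate block Klf3 was not called (adjusted p = 0.0598), which left 0 of 8, and the 389 genes called became 229. Between lin28Tg and let-7Tg 3 were called, Tox lower and Klf3 and Foxo1 higher in lin28Tg (30.9% called, 15.9% higher), a number close to the share of all genes. The median log2 fold change of the factors between lin28Tg and WT was 0.01, beside -0.013 over all genes. Erythroid marker sums also differed between the genotypes at 12 h, as given above. B sums were higher in lin28Tg than in WT cells (2.79 to 3.10 against 1.46 to 1.87 FPKM). So were CD4 T (3.81 to 4.55 against 1.71 to 2.52 FPKM) and thymocyte and progenitor sums (5.20 to 15.2 against 1.25 to 3.17). Stromal sums were also higher (0.104 to 0.169 against 0.0655 to 0.0824 FPKM), while myeloid and NK and innate sums overlapped. The part of these cells was not tested.

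In day 5 CTLs 3 of the factors lower in naive lin28Tg cells were called again. Lin28Tg CTLs were lower than WT in 3 factors, Foxp1, Bach2 and Klf3 (4.34% of 13030 genes called, 2.28% lower), and none was higher. The median log2 fold change was -0.56 over the factors and 0.01 over all genes. Let-7Tg and WT CTLs differed in none by limma or by limma with voom weights (2 at an unadjusted p under 0.05, 0.921% of all genes called). Lin28Tg were lower than let-7Tg CTLs in 4, Klf3, Bach2, Tox and Foxp1 (21.7% called, 10.3% lower). Libraries with the same replicate number deviated together at day 5, and with the number as a block the calls of the 3 comparisons rose from 7 to 11, and those of all genes from 566 to 1784 between lin28Tg and WT, from 120 to 521 between let-7Tg and WT and from 2833 to 4705 between lin28Tg and let-7Tg. The added calls were Foxo3 (adjusted p = 0.0164) and Tox (0.0178) between lin28Tg and WT, Foxo3 between lin28Tg and let-7Tg (0.00574), and Klf3 between let-7Tg and WT (0.0392). Without the WT day 5 replicate 1 only Foxp1 was still called between lin28Tg and WT CTLs by limma. Klrb1c, but not Ncr1 or Tyrobp, was apart from WT in lin28Tg CTLs, as given above, and its part in these differences was not tested.

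**Figure D1:**
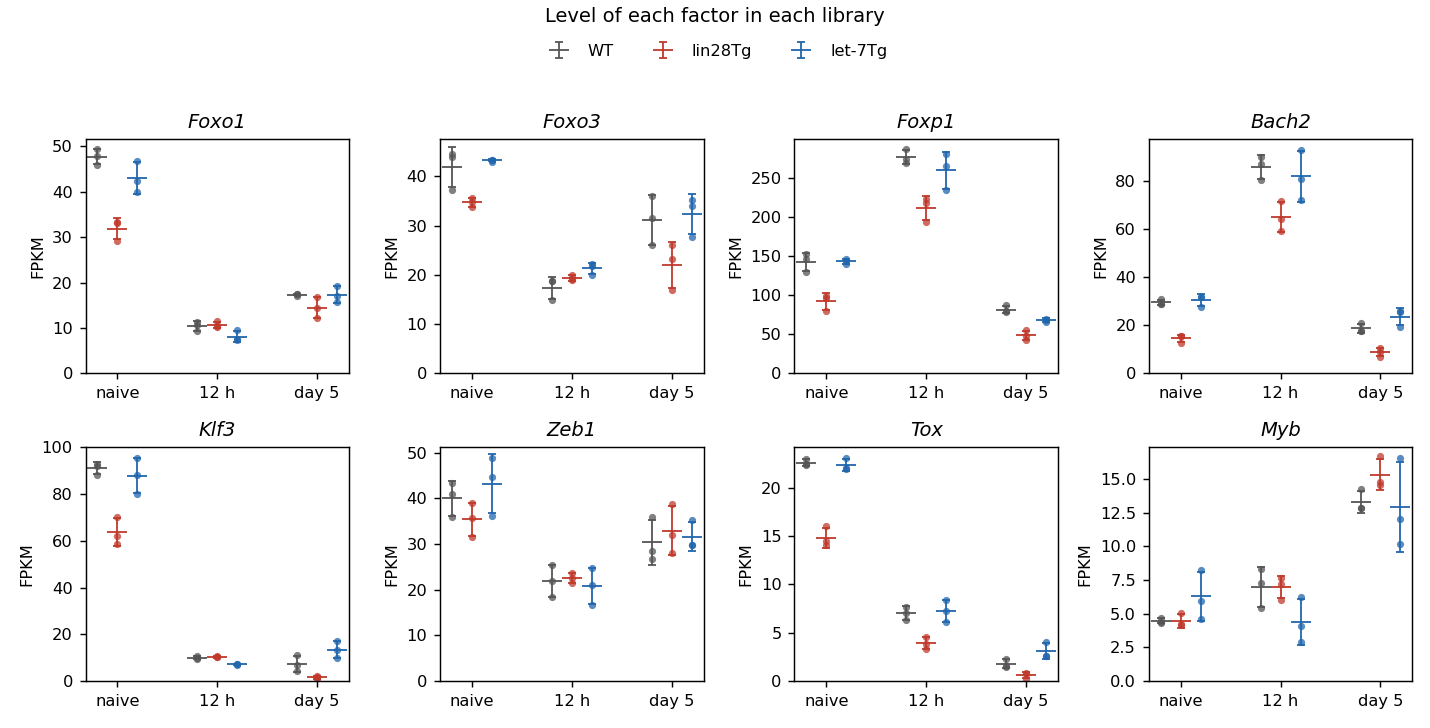
Level of each factor in FPKM (y axes, linear from 0) in naive, 12 h and day 5 cells of WT (grey), lin28Tg (red) and let-7Tg (blue) mice; points are libraries, and bars give the mean ± SD of 3. Klf3 and Tox were highest in naive cells, Bach2 and Foxp1 peaked at 12 h, and Myb was highest at day 5.

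**Figure D2:**
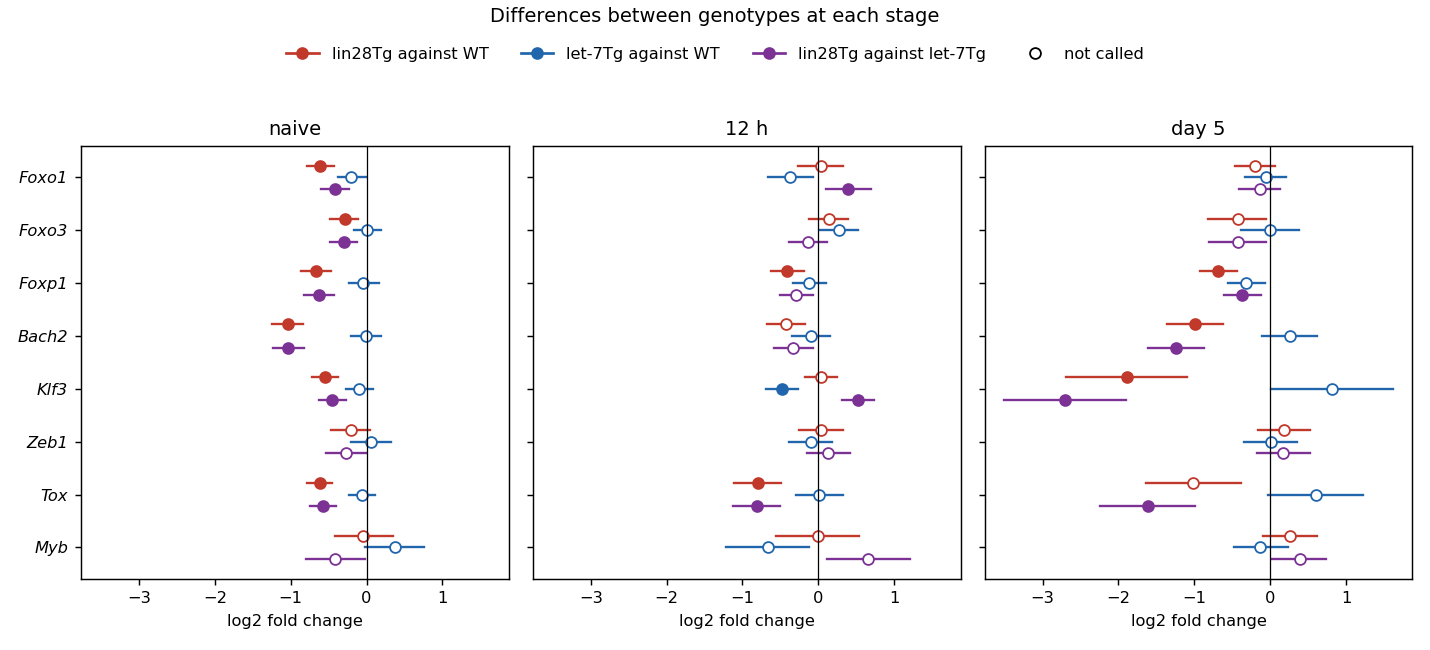
Log2 fold change (x axes) of each factor between genotypes in naive, 12 h and day 5 cells, with 95% confidence intervals; filled points are called by limma at an adjusted p under 0.05. In naive cells 6 red points lie left of 0 and filled, at 12 h only Tox and Foxp1, and at day 5 Klf3 lies farthest left.

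Foxo1, the main FOXO factor of naive T cells, was highest in naive and lowest at 12 h in every genotype. Naive WT libraries held 45.97, 47.9 and 49.3 FPKM, naive lin28Tg libraries 33.1, 29.2 and 33.4 FPKM and naive let-7Tg libraries 42.3, 46.7 and 39.99 FPKM. All 3 lin28Tg values lay below those of both other groups, a 1.53-fold lower level than WT (limma log2 fold change -0.61, SE 0.08, adjusted p = 0.00087; folds are on the scale of scaled FPKM plus 0.5). At 12 h the levels were 11.3, 9.24 and 10.6 FPKM in WT, 10.4, 10.3 and 11.5 FPKM in lin28Tg and 9.46, 7.57 and 7.24 FPKM in let-7Tg cells. WT and lin28Tg values overlapped there, while lin28Tg lay above let-7Tg (limma log2 fold change 0.39, SE 0.13, adjusted p = 0.047), a call that was lost in 5 of the 6 fits that left out 1 library. CTLs held 17.1, 17.4 and 17.5 FPKM in WT, 16.8, 12.1 and 14.4 FPKM in lin28Tg and 19.3, 16.9 and 15.7 FPKM in let-7Tg cells, and no pair of genotypes was called. The interval of the log2 difference of lin28Tg from WT CTLs was -0.47 to 0.07. In the order of group means the naive groups came first (WT, let-7Tg, lin28Tg), then the day 5 groups and then the 12 h groups. WT and let-7Tg CTLs did not differ beyond their spread, nor did WT and lin28Tg cells at 12 h.

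Foxo3, its relative with a role in T cell death and contraction, followed the same course in a narrower range. Group means ran from 43.3 ± 0.206 FPKM (SD, n = 3) in naive let-7Tg cells to 17.4 ± 2.23 FPKM in WT cells at 12 h. Naive lin28Tg libraries, at 35.7, 33.7 and 34.9 FPKM, lay below the WT libraries at 37.2, 44.00 and 44.5 FPKM (limma log2 fold change -0.29, SE 0.08, adjusted p = 0.02), and this call was kept in only 2 of 6 fits without 1 library. In CTLs the WT values were 36.1, 31.5 and 26.00 FPKM and the lin28Tg values 26.1, 23.2 and 16.95 FPKM. These ranges overlapped, but within each replicate number the lin28Tg value was the lower one, and the fall of 1.35-fold passed the test with the replicate block (adjusted p = 0.0164, without it 0.196). Between WT and let-7Tg cells Foxo3 was not called at any stage. In the order of means the naive groups came first (let-7Tg, WT, lin28Tg), then let-7Tg and WT CTLs, and lin28Tg CTLs stood next to the 12 h groups, with values that overlapped those of let-7Tg cells at 12 h.

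Foxp1 rose on activation and then fell below its naive level. WT libraries held 129.5, 146 and 152 FPKM in naive cells, 269, 274 and 287 FPKM at 12 h and 79.98, 87.2 and 77.9 FPKM at day 5. Lin28Tg libraries held 96.7, 80.2 and 99.5 FPKM, 224, 218 and 194 FPKM and 42.6, 47.9 and 54.97 FPKM at the same stages, below every WT value of that stage. The falls were 1.58-fold in naive cells (limma log2 fold change -0.66, SE 0.09, adjusted p = 0.000835), 1.33-fold at 12 h (limma log2 fold change -0.41, SE 0.10, adjusted p = 0.034) and 1.61-fold in CTLs (limma log2 fold change -0.69, SE 0.11, adjusted p = 0.0131). Foxp1 was called between lin28Tg and WT at all 3 stages, as was Tox once day 5 was fitted with the replicate block, although the Foxp1 call at 12 h was lost whichever library was left out (limma adjusted p 0.06 to 0.129). Let-7Tg libraries held 144, 139.5 and 146 FPKM in naive cells, 280.3, 234 and 265 FPKM at 12 h and 68.2, 65.6 and 70.1 FPKM in CTLs. In CTLs these 3 lay between lin28Tg and WT, lower than WT without passing the test (let-7Tg against WT, limma log2 fold change -0.32, SE 0.11, adjusted p = 0.245) and above lin28Tg CTLs (lin28Tg against let-7Tg, limma log2 fold change -0.37, SE 0.11, adjusted p = 0.0412); the latter call was kept in 1 of 6 fits without 1 library. In the order of means the 12 h groups came first, then naive let-7Tg and WT cells, and within each of these stages the difference of WT from let-7Tg cells was within the spread of the libraries. Naive lin28Tg cells overlapped WT CTLs, and lin28Tg CTLs came last.

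Bach2, the repressor that restrains effector genes, rose to 12 h and fell after it, as Foxp1 did, and had the largest fall of the factors between naive lin28Tg and WT cells. Naive WT libraries held 29.03, 30.8 and 29.04 FPKM, naive let-7Tg libraries 31.8, 27.6 and 31.96 FPKM and naive lin28Tg libraries 15.5, 12.7 and 15.4 FPKM. No lin28Tg value came near the others, and the level was 2.05-fold lower than in WT (limma log2 fold change -1.04, SE 0.09, adjusted p = 6.97e-05). By 12 h Bach2 had reached 87.1, 90.2 and 80.6 FPKM in WT cells, 93.2, 72.1 and 80.7 FPKM in let-7Tg and 71.6, 59.3 and 64.2 FPKM in lin28Tg cells. All lin28Tg values lay below the WT values, but the difference missed the threshold (limma log2 fold change -0.42, SE 0.11, adjusted p = 0.0518). In CTLs the levels were 17.7, 17.8 and 20.9 FPKM in WT cells, 25.8, 25.4 and 19.4 FPKM in let-7Tg and 9.02, 6.996 and 10.7 FPKM in lin28Tg cells. The lin28Tg values were again the lowest, 1.98-fold below WT (limma log2 fold change -0.99, SE 0.16, adjusted p = 0.0151; 0.0507 without the WT day 5 replicate 1) and 2.37-fold below let-7Tg (limma log2 fold change -1.24, SE 0.16, adjusted p = 0.00118). Let-7Tg and WT CTLs were not separated (log2 interval -0.11 to 0.62). In the order of means naive lin28Tg cells ranked below WT and let-7Tg CTLs, with no overlap between their libraries, and lin28Tg CTLs came last.

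Klf3 lost most of its message on activation and differed between genotypes most in CTLs. Naive WT libraries held 92.03, 88.2 and 93.00 FPKM, naive let-7Tg libraries 80.2, 95.4 and 88.2 FPKM and naive lin28Tg libraries 62.3, 58.8 and 70.2 FPKM. The lin28Tg values were the lowest (limma log2 fold change -0.55, SE 0.08, adjusted p = 0.00123). At 12 h the levels were 9.62, 10.8 and 9.48 FPKM in WT, 10.8, 10.2 and 10.1 FPKM in lin28Tg and 7.19, 6.83 and 7.27 FPKM in let-7Tg cells. Here let-7Tg cells were the lowest, 1.40-fold below WT (limma log2 fold change -0.48, SE 0.09, adjusted p = 0.0369). Same-numbered libraries of both groups deviated together, and with the block the adjusted p was 0.0598, so the call was lost, as it was in 5 of the 6 fits without 1 library. The order then turned over. CTLs held 13.2, 9.71 and 17.3 FPKM in let-7Tg, 6.63, 4.41 and 11.1 FPKM in WT and 1.96, 0.833 and 1.70 FPKM in lin28Tg cells. Lin28Tg CTLs lay below all others, 3.71-fold below WT (limma log2 fold change -1.89, SE 0.36, adjusted p = 0.0231) and 6.53-fold below let-7Tg (limma log2 fold change -2.71, SE 0.36, adjusted p = 0.00118). WT CTLs spread widely around their mean of 7.38 ± 3.41 FPKM and overlapped let-7Tg CTLs. Within each replicate number, however, the let-7Tg value was the higher one, and with the replicate block the difference was called (adjusted p = 0.0392). The call between lin28Tg and WT was lost without WT replicate 1 (limma adjusted p = 0.0788) and without lin28Tg replicate 2 or 3 of day 5, and the lin28Tg values rest on 34 to 73 reads. In the order of means naive WT and let-7Tg cells, which overlapped, came before naive lin28Tg cells. Let-7Tg CTLs, the other 12 h and day 5 groups and, last and apart, lin28Tg CTLs followed.

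Zeb1, the zinc finger repressor, was the member least touched by genotype. Group means ran from 43.3 ± 6.41 FPKM in naive let-7Tg to 20.8 ± 3.97 FPKM in let-7Tg cells at 12 h, highest in naive cells and lowest at 12 h in each genotype. In no comparison between genotypes was it called by limma or with voom weights. Naive lin28Tg cells, at 35.4 ± 3.70 FPKM, lay below let-7Tg cells without passing the test (limma log2 fold change -0.27, SE 0.12, adjusted p = 0.0876). Naive lin28Tg cells also overlapped the CTLs of all genotypes, which came next in the order of means, before the 12 h groups. In CTLs the interval of the log2 difference of lin28Tg from WT was -0.16 to 0.53.

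Tox, the HMG box factor, fell at each step of activation, and was lowest in lin28Tg cells at each stage. WT libraries held 22.4, 22.98 and 22.4 FPKM in naive cells, 7.04, 7.69 and 6.33 FPKM at 12 h and 1.58, 1.44 and 2.28 FPKM at day 5. Lin28Tg libraries held 15.99, 14.01 and 14.5 FPKM, 4.58, 3.81 and 3.31 FPKM and 0.245, 0.836 and 0.755 FPKM. At each stage every lin28Tg value lay below every WT value. The level was 1.54-fold lower in naive cells (limma log2 fold change -0.62, SE 0.08, adjusted p = 0.000497) and 1.74-fold lower at 12 h (limma log2 fold change -0.80, SE 0.14, adjusted p = 0.00816). In CTLs the difference (limma log2 fold change -1.02, SE 0.28, adjusted p = 0.078) missed the threshold, and passed it with the replicate block (adjusted p = 0.0178). The lin28Tg CTL values rest on 11 to 41 reads. Let-7Tg libraries held 22.04, 21.9 and 23.1 FPKM in naive cells, 6.07, 8.40 and 7.25 FPKM at 12 h and 2.59, 2.58 and 4.000 FPKM in CTLs. Naive and 12 h values overlapped WT, and CTL values lay above WT without passing the test (limma log2 fold change 0.60, SE 0.28, adjusted p = 0.43). Against let-7Tg CTLs the lin28Tg level was 3.05-fold lower (limma log2 fold change -1.61, SE 0.28, adjusted p = 0.00383). The means fell into the order of the stages, and only lin28Tg cells at 12 h and let-7Tg CTLs overlapped across stages.

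Myb was the only factor that was higher in CTLs than in naive cells. WT libraries held 4.37, 4.34 and 4.71 FPKM in naive cells, 8.29, 5.38 and 7.30 FPKM at 12 h and 14.3, 12.9 and 12.9 FPKM at day 5, with no overlap between stages. Lin28Tg libraries held 4.13, 4.22 and 5.02 FPKM, 7.20, 6.04 and 7.65 FPKM and 14.5, 14.8 and 16.7 FPKM, and let-7Tg libraries 5.97, 4.62 and 8.24 FPKM, 6.23, 4.10 and 2.87 FPKM and 16.6, 12.01 and 10.1 FPKM. The let-7Tg values were the most scattered at each stage. The CTL groups came first in the order of means, then WT and lin28Tg cells at 12 h, while let-7Tg cells at 12 h had the lowest mean and overlapped the naive groups. No comparison between genotypes was called by limma. With voom weights 1 was, at 12 h, with lin28Tg above let-7Tg cells. In CTLs every lin28Tg value lay above every WT value, by 1.20-fold (limma log2 fold change 0.26, SE 0.16, adjusted p = 0.407). At 12 h the let-7Tg mean was below that of WT without passing the test (limma log2 fold change -0.67, SE 0.25, adjusted p = 0.156).

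Between stages nearly all factors changed, as did most genes. In WT cells all 8 were called from naive to 12 h (71.1% of 14453 genes called) and from 12 h to day 5 (67.3%), and 7 from naive to day 5 (65.5%). In lin28Tg cells 8, 7 and 7 were called (73.6%, 66.3% and 68.3% of all genes), and in let-7Tg cells 7, 8 and 7 (69.5%, 66.8% and 62.7%). These shares are close to those of all genes, so the number of factors called is no result about them, and the directions are given. From naive to 12 h Klf3 fell most in WT cells (7.88-fold, limma log2 fold change -2.98, SE 0.23, adjusted p = 1.28e-10), followed by Foxo1, Tox, Foxo3 and Zeb1. Bach2 rose 3.20-fold (limma log2 fold change 1.68, SE 0.13, adjusted p = 1.39e-10), Foxp1 2.17-fold and Myb 1.64-fold. From 12 h to day 5 Bach2 and Foxp1 turned back, with falls of 4.73-fold and 3.56-fold, and Tox fell a further 3.52-fold. Klf3 fell by a further 1.48-fold, but its libraries overlapped between the stages and the call was lost in 5 of 6 fits without 1 library. Foxo1 (1.56-fold), Foxo3 (1.68-fold), Zeb1 (1.31-fold) and Myb (1.78-fold) rose. Over the whole course Klf3 ended 11.7-fold and Tox 9.75-fold below the naive level, and Myb 2.93-fold above it. In lin28Tg cells Klf3 fell further over the whole course (limma log2 fold change -4.90, SE 0.23, adjusted p = 1.15e-13) and Tox fell 12.9-fold. In let-7Tg cells Klf3 fell 6.05-fold and Tox 6.06-fold. From 12 h to day 5 Klf3 fell in lin28Tg cells (limma log2 fold change -2.55, SE 0.23, adjusted p = 2.64e-09) and rose in let-7Tg cells (limma log2 fold change 0.74, SE 0.23, adjusted p = 0.00732; 0.0602 without the let-7Tg day 5 replicate 3).

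**Figure D3:**
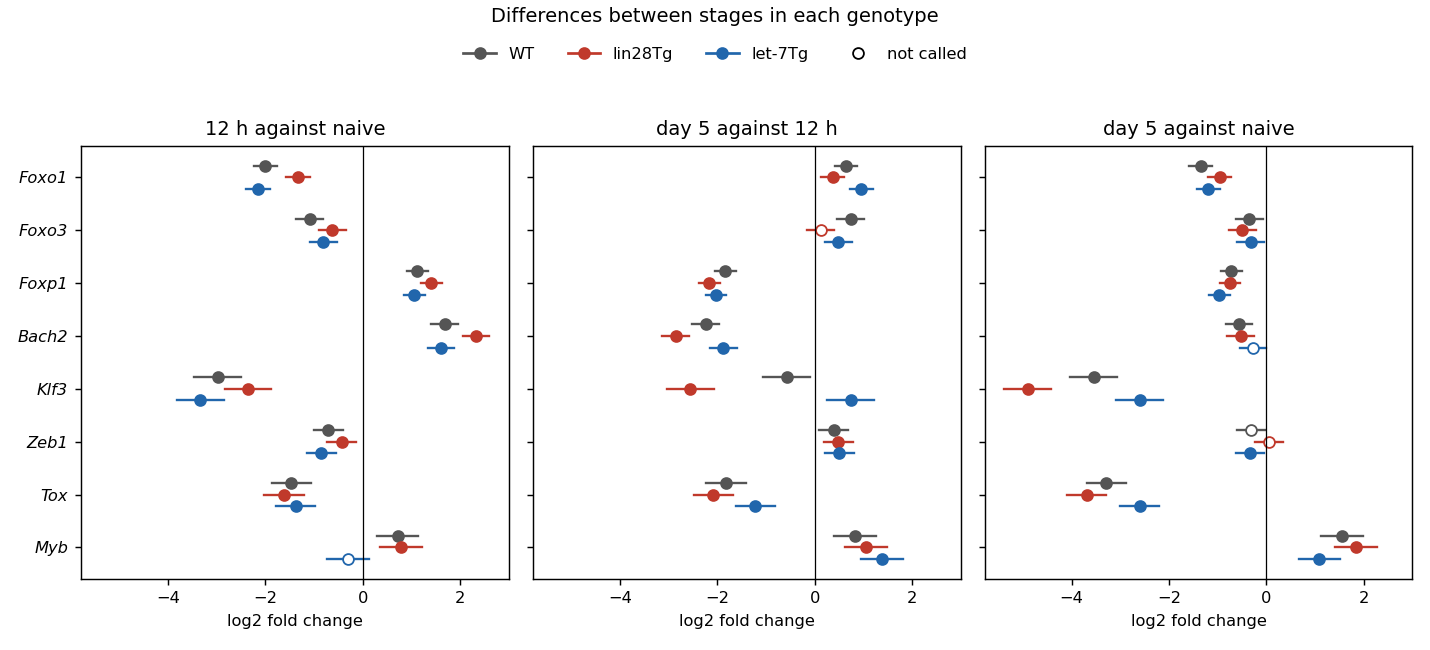
Log2 fold change (x axes) of each factor between stages in WT (grey), lin28Tg (red) and let-7Tg (blue) cells, with 95% confidence intervals; filled points are called by limma at an adjusted p under 0.05. In the middle panel Klf3 falls in lin28Tg and rises in let-7Tg cells, and in the left panel Bach2 and Foxp1 lie right of 0 in all genotypes.

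Whether a genotype changed a stage step was tested as the interaction in a fit of all 27 libraries. Of the step from naive to 12 h, the difference between lin28Tg and WT was called for 2 factors, Foxo1 and Bach2 (7.92% of all genes), and that between lin28Tg and let-7Tg for 4, Foxo1, Bach2, Klf3 and Myb (13.6%). From 12 h to day 5 it was called for 2, Klf3 and Bach2, against WT (6.69%), for 4, Klf3, Bach2, Foxo1 and Tox, against let-7Tg (20.3%), and for 1, Klf3, between let-7Tg and WT (1.29%). Over the whole course it was called for 1, Klf3, between lin28Tg and WT (15.2%) and for 2, Klf3 and Tox, between lin28Tg and let-7Tg (25.4%). Over the whole course these numbers are close to the shares of all genes, so they are no result about the factors. Between let-7Tg and WT none was called by limma or with voom weights for the step to 12 h (1 at an unadjusted p under 0.05, 0.0969% of all genes) or over the whole course (2 at an unadjusted p under 0.05, 0.436%). With the replicate block Klf3 was called over the whole course (difference 0.95, SE 0.18, limma adjusted p = 0.0211). Klf3 was the factor with the largest differences, -1.98 (SE 0.33, limma adjusted p = 0.000468) between lin28Tg and WT and -3.29 (SE 0.33, limma adjusted p = 2.48e-07) between lin28Tg and let-7Tg from 12 h to day 5. Bach2 rose more steeply to 12 h in lin28Tg than in WT cells, by 0.65 (SE 0.19, limma adjusted p = 0.0337) on the log2 scale, from its lower start, and this call was lost in 8 of 12 fits without 1 library. Its steeper fall from 12 h to day 5 was lost in 11 of 12, and the difference in Klf3 between let-7Tg and WT in 10 of 12. The difference in Klf3 between lin28Tg and let-7Tg from naive to 12 h was lost in all 12, with limma adjusted p of 0.0588 to 0.109.

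Across the 9 group means on the log2 scale, which share libraries and stages, Bach2 and Foxp1 ran most alike (Pearson r = 0.96), then Klf3 and Tox (0.92), Foxo1 and Foxo3 (0.9) and Foxo1 and Zeb1 (0.9), and Tox and Myb ran opposite (-0.91). With 9 points that mostly follow the stages, these values describe the course and no more. Among all tested genes, the 2 most like each factor over the 9 means were Tmem234 (r = 0.99) and Stim1 (0.989) for Foxo1, Gpt (0.988) and Foxn3 (0.988) for Foxo3, and Gm20430 (0.991) and Gpr174 (0.989) for Foxp1. For Bach2 they were A430093F15Rik (0.998) and Heatr6 (0.988), for Klf3 Stx1a (0.991) and Sbk1 (0.99), and for Zeb1 Txk (0.989) and Zdhhc15 (0.988). For Tox they were A730017L22Rik (0.991) and Abcc5 (0.991), and for Myb Tmem138 (0.984) and Acat2 (0.978).

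Other regulators of quiescence and memory, 20 genes, were lower more often than higher in lin28Tg cells. In naive lin28Tg cells 12 were lower and 1 higher than in WT (median log2 fold change -0.35, all genes -0.016), where 33.1% of all genes were called and 13.4% were lower. At 12 h 6 were lower (2.38% of all genes), and in CTLs 5 (2.28% of all genes, median -0.28, all genes 0.01). With the replicate block the CTL counts were 8 lower and 2 higher, while calls over all genes rose too, as given for day 5 above. In naive cells the smallest adjusted p were those of Bcl11b, a factor of T cell identity (limma log2 fold change -0.54, SE 0.06, adjusted p = 0.000308), Lef1, a partner of TCF-1 (limma log2 fold change -0.86, SE 0.11, adjusted p = 0.000543) and Ets1, which supports T cell survival (limma log2 fold change -0.57, SE 0.07, adjusted p = 0.00057). In CTLs Tcf7, the gene of TCF-1, held 159, 116 and 173 FPKM in WT cells, 237, 215 and 169 FPKM in let-7Tg and 8.60, 2.93 and 8.79 FPKM in lin28Tg cells. The lin28Tg values did not approach the others (limma log2 fold change -4.42, SE 0.35, adjusted p = 0.000851), a larger fall than that of any of the 8 factors. Slfn2, a gene of T cell quiescence (limma log2 fold change -1.05, SE 0.15, adjusted p = 0.00852), and Zbtb20, a factor that shapes memory metabolism (limma log2 fold change -1.08, SE 0.16, adjusted p = 0.0107), also fell. Zbtb20 was higher in let-7Tg than in WT CTLs (limma log2 fold change 0.88, SE 0.16, adjusted p = 0.0465), and at 12 h Id3 was (limma log2 fold change 0.44, SE 0.10, adjusted p = 0.0491), a call lost with the replicate block (adjusted p = 0.0712). No other gene of the list was called between let-7Tg and WT at any stage by limma (4, 4 and 7 at an unadjusted p under 0.05 in naive, 12 h and day 5 cells, these included). With the block 4 were higher and 1 lower in let-7Tg than in WT CTLs, while calls over all genes rose too, from 0.921% without it.

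Genes that FOXO factors are known to activate were followed beside them, 15 in all. Klf2 also stands in other lists used here. In naive lin28Tg cells 5 were lower and 2 higher than in WT (median log2 fold change -0.18, all genes -0.016), beside 33.1% of all genes called and 13.4% lower. S1pr1, the receptor for exit from lymph nodes, was lower (limma log2 fold change -0.93, SE 0.08, adjusted p = 7.27e-05), and Gabarapl1, a gene of autophagy, was higher (limma log2 fold change 1.18, SE 0.22, adjusted p = 0.00376). Between let-7Tg and WT cells only Bcl2l11, which drives cell death, was called without the block, lower at 12 h (limma log2 fold change -0.63, SE 0.14, adjusted p = 0.0491). At 12 h 2 were higher in lin28Tg than in WT cells (8.35% of all genes called, 2.38% lower), Cited2 (limma log2 fold change 0.61, SE 0.12, adjusted p = 0.0171) and Irs2 (limma log2 fold change 0.59, SE 0.14, adjusted p = 0.027). In CTLs 4 were lower, or 9 with the replicate block (2.28% of all genes lower without it, median -0.58, all genes 0.01), while Foxo1 itself was not called. With the block the calls over all genes rose too, as given for day 5 above, and no blocked share is set beside the 9. Ccr7, a receptor for entry into lymph nodes, held 37.6, 22.2 and 49.7 FPKM in WT and 3.02, 2.69 and 1.98 FPKM in lin28Tg CTLs (limma log2 fold change -3.48, SE 0.29, adjusted p = 0.00111). Against let-7Tg CTLs 7 of 15 were lower in lin28Tg CTLs, or 11 with the block (10.3% of all genes lower without it, median -0.76, all genes 0.018). There too the block raised the calls over all genes. Earlier, Ccr7 was higher in lin28Tg than in let-7Tg cells, both naive (limma log2 fold change 0.76, SE 0.10, adjusted p = 0.000429) and at 12 h (limma log2 fold change 1.37, SE 0.26, adjusted p = 0.00434). Of the 15, 2 were higher and 6 lower in naive lin28Tg than in let-7Tg cells (43.4% of all genes called, 19.8% lower). At 12 h 4 were higher and none lower (30.9% called, 15.9% higher).

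The kinases that push FOXO factors out of the nucleus and their brakes, 10 genes, were called in both directions in naive lin28Tg cells against WT, 2 higher and 2 lower (median log2 fold change -0.05, all genes -0.016), a share near the 33.1% of all genes called. In CTLs 1 was called (4.34% of all genes), or 3 with the replicate block, which raised the calls over all genes too, as given above. The 1 was Sgk1, a kinase that phosphorylates FOXO factors, with 69.7, 54.00 and 39.1 FPKM in lin28Tg and 20.9, 23.5 and 23.4 FPKM in WT CTLs (limma log2 fold change 1.28, SE 0.22, adjusted p = 0.0159). Akt1 was higher in lin28Tg cells at 12 h (limma log2 fold change 0.29, SE 0.07, adjusted p = 0.0398). FPKM measures message, so phosphorylation and the place of FOXO proteins in the cell are outside these data.

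Of 17 paralogs 14 were tested in naive cells, where 5 were higher and 3 lower in lin28Tg than in WT cells (median log2 fold change 0.11, all genes -0.016), beside 33.1% of all genes called. Mybl2, the cell cycle relative of Myb, held 11.1, 13.7 and 15.8 FPKM in naive lin28Tg and 3.52, 3.13 and 4.15 FPKM in naive WT cells (limma log2 fold change 1.74, SE 0.20, adjusted p = 0.000393) and was also higher at 12 h (limma log2 fold change 2.42, SE 0.28, adjusted p = 0.00112). Klf4 was higher in naive lin28Tg cells (limma log2 fold change 1.96, SE 0.32, adjusted p = 0.00226), with its highest value, 9.66 FPKM, in replicate 2, the library with the highest myeloid sum. Klf7 was lower (limma log2 fold change -0.73, SE 0.12, adjusted p = 0.00215). In CTLs 1 of 13 was called between lin28Tg and WT (4.34% of all genes). With the replicate block 2 were higher and 3 lower, while calls over all genes rose too, as given above. The 1 was Klf2, a quiescence factor and FOXO target, with levels of 12.6, 9.41 and 8.29 FPKM in lin28Tg CTLs, 43.3, 21.3 and 48.7 FPKM in WT CTLs and 86.7, 43.8 and 95.4 FPKM in let-7Tg CTLs (limma log2 fold change -1.72, SE 0.37, adjusted p = 0.0354).

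**Figure D4:**
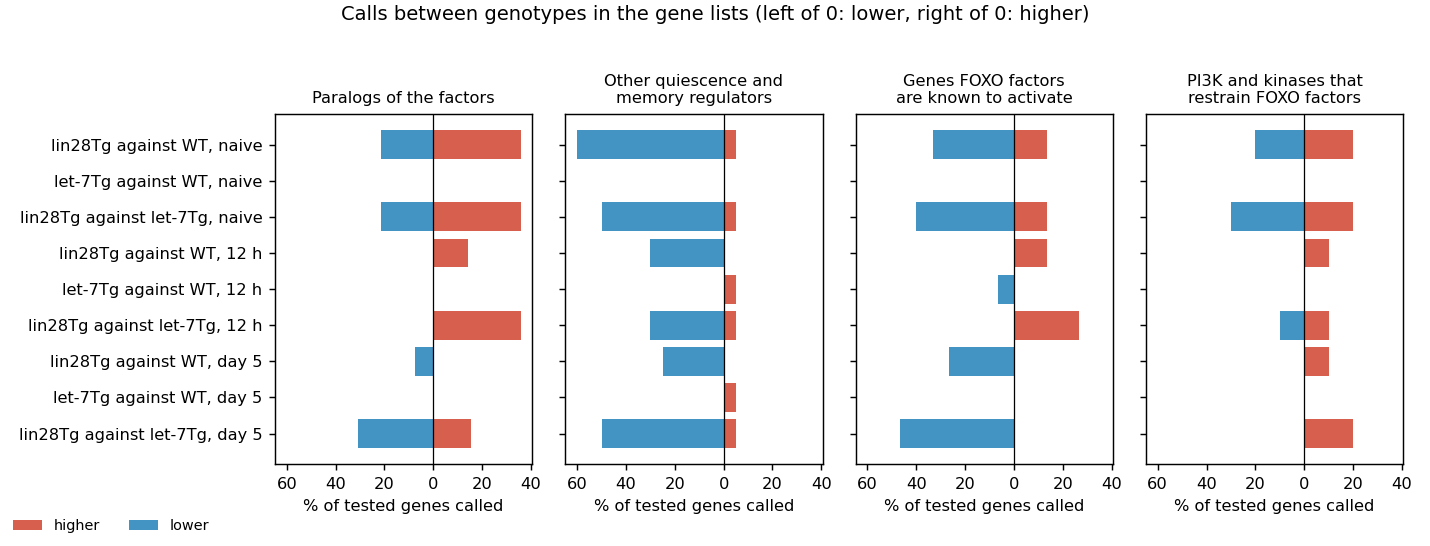
Share of the tested genes of each list (x axes, percent) called higher (red, right of 0) or lower (blue, left of 0) in each comparison between genotypes, by limma at an adjusted p under 0.05. The bars of other quiescence and memory regulators reach 60% to the left for naive lin28Tg against WT cells, and those of let-7Tg against WT hold at most 1 gene per list, all without the replicate block.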

How the data were processed

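RNA of 27 libraries was sequenced in pairs. Per the labels and the study's methods, the authors aligned reads with TopHat2 2.0.9 and Bowtie2 2.0.6 to mouse GRCm38, counted them with HTSeq 0.6.1 and deposited FPKM values per gene and library; the annotation release and the use of strand are not given in the sources used here. Their own mean counts, fold changes, p-values, calls, ranks and heat map columns were not used. FPKM values were whole numbers of reads times a step, and 462839 values gave whole reads (100.0%, tolerance 0.02); libraries held 13862706 to 23591069 reads, median 16761374, and counting limits low genes.

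The filter asked for the equivalent of 10 reads at median depth in 3 or more libraries, and for 15 reads over all of them. FPKM values were scaled between libraries by TMM-type factors, and log2(FPKM + 0.5) was tested with limma 3.58.1 in R 4.3.3 (empirical Bayes with an intensity trend, two-sided), in 1 fit per stage for genotypes and 1 fit of all libraries for stages and interactions. P-values were adjusted by Benjamini-Hochberg over all genes tested (threshold 0.05). They rest on the spread among the 3 biological replicates of each group, pooled over the groups of a fit and moderated across genes. Differences are on the log2(FPKM + 0.5) scale, which understates those of low genes. The fits were tested on simulated data. Alternatives were pseudocounts of 0.1 and 1 FPKM, no filter, no scaling, median-of-ratios scaling, no trend, 1 fit of all libraries, only the 6 libraries compared, voom weights on the recovered reads, a replicate block, and each library left out.

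Replicate numbers come from the labels. Deviations from group means correlated between same-numbered libraries in every pair at day 5 (r = 0.285 to 0.368 for lin28Tg and WT, 0.531 to 0.714 for let-7Tg and WT, 0.245 to 0.513 for lin28Tg and let-7Tg) and at 12 h for let-7Tg and WT (0.24 to 0.549), so blocked values are given there where they change a call or a count. Naive let-7Tg and WT libraries (r = 0.0609 to 0.474) were not treated as paired. Nor were the other comparisons of genotypes, in each of which the lowest r was negative. The members and gene lists were chosen with earlier results of these data known. Named were all 8 members, from each list at most 3 called genes per comparison, those of lowest adjusted p, and the 2 genes most like each member; some genes are not reported here.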

Additional observations from a re-analysis of the deposited data

Results flagged for a closer look

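The step between stages differed between genotypes, by the interaction in the fit of all 27 libraries with limma, in 16 cases, each given as the difference of log2 fold changes. From naive to 12 h, lin28Tg minus WT was 0.67 for Foxo1 and 0.65 for Bach2, and lin28Tg minus let-7Tg was 0.82 for Foxo1, 0.72 for Bach2, 0.98 for Klf3 and 1.08 for Myb. From 12 h to day 5, lin28Tg minus WT was -0.61 for Bach2 and -1.98 for Klf3, let-7Tg minus WT was 1.31 for Klf3, and lin28Tg minus let-7Tg was -0.59 for Foxo1, -0.98 for Bach2, -3.29 for Klf3 and -0.85 for Tox. From naive to day 5, lin28Tg minus WT was -1.36 for Klf3, and lin28Tg minus let-7Tg was -2.31 for Klf3 and -1.09 for Tox. Comparisons in this set share libraries, and groups of 3 were not examined for single samples that stand apart.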

How the results depend on the processing

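Calls of the 8 factors numbered 25 of 72 between genotypes, 67 of 72 between stages and 16 of 72 for interactions, and ran from 20 to 31, 64 to 69 and 12 to 23 over the alternatives. No direction of a called value reversed. At 12 h the 6 calls between genotypes became 3 with no filter on few reads, and at day 5 the 7 calls became 11 with 1 fit of all 27 libraries and 11 with the replicate block. Per comparison the block also moved the calls between lin28Tg and let-7Tg at 12 h from 3 to 5, and the interactions of lin28Tg and WT to 12 h from 2 to 4 and of lin28Tg and let-7Tg over the whole course from 2 to 4. Those of let-7Tg and WT over the whole course moved from 0 to 1. Leaving out 1 library gave 11 to 14 calls in naive cells, 4 to 8 at 12 h and 5 to 7 at day 5, and 23 to 27 calls between genotypes, 64 to 68 between stages and 12 to 17 interactions in all. Under every setting 14 of 25 calls between genotypes, 59 of 67 between stages and 10 of 16 interactions were kept. Where numbers did not pair the libraries, the block added Bach2 at 12 h between lin28Tg and WT (adjusted p = 0.0307) and between lin28Tg and let-7Tg (0.0342), and Myb between lin28Tg and let-7Tg (0.041). Without scaling, the median of all genes from naive to 12 h moved from -0.081 to -0.183 in WT cells, and the share of called genes that were higher from 52.5% to 35.0% between lin28Tg and let-7Tg CTLs, from 38.1% to 51.0% between naive let-7Tg and WT cells and from 25.7% to 14.7% for the difference of lin28Tg from WT over the whole course. Counts of all genes called moved by over 1.5 times under some settings, from 105 to between 32 and 58 for let-7Tg against WT in naive cells, from 389 to between 35 and 648 at 12 h and from 120 to between 1 and 581 at day 5, and for day 5 from 566 to between 208 and 1784 for lin28Tg against WT and from 2833 to 4705 for lin28Tg against let-7Tg. For the interactions they moved from 1144 to between 208 and 695, from 967 to 1493 and from 2198 to 1316 for lin28Tg and WT (to 12 h, 12 h to day 5, and overall), from 14 to 0, from 186 to between 71 and 355 and from 63 to between 15 and 101 for let-7Tg and WT, and from 1967 to 840 to 12 h for lin28Tg and let-7Tg. Fold changes of Klf3 and Tox in lin28Tg CTLs are limited by few reads. The cause of these shifts was not tested.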

Other observations

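In WT cells most genes that FOXO factors activate and most of the PI3K and kinase genes fell to 12 h and rose after it. From naive to 12 h, when 71.1% of all genes were called, 12 of the 15 genes that FOXO factors activate fell and 2 rose (median log2 fold change -1.91, all genes -0.081), and from 12 h to day 5, when 67.3% were called, 11 rose and 1 fell (median 1.38, all genes 0.036). Cdkn1b, an inhibitor of the cell cycle, fell (limma log2 fold change -2.55, SE 0.19, adjusted p = 3.88e-11) and then rose (limma log2 fold change 2.75, SE 0.19, adjusted p = 1.8e-11), while Gabarapl1, of autophagy, rose to 12 h (limma log2 fold change 2.89, SE 0.17, adjusted p = 8.85e-13). Of the 10 genes of PI3K, kinases and their brakes, 7 fell and 1 rose to 12 h (median -1.23), and 7 rose and 1 fell after it (median 1.22). Pik3r1, a regulatory subunit of PI3K, fell (limma log2 fold change -2.19, SE 0.10, adjusted p = 3.84e-14) and rose again (limma log2 fold change 2.09, SE 0.10, adjusted p = 1.12e-13). Of the 20 other regulators 16 fell and 2 rose to 12 h (median -1.26), among them Bcl11b, a factor of T cell identity (limma log2 fold change -1.62, SE 0.11, adjusted p = 6.25e-12), and 11 rose and 7 fell to day 5 (median 0.57). The 14 paralogs tested were divided, with 5 higher and 4 lower at 12 h (median -0.02) and 7 higher and 5 lower from 12 h to day 5 (median 0.40). Klf2 fell most steeply of those named (limma log2 fold change -5.46, SE 0.50, adjusted p = 1.74e-09). These lists were chosen with earlier results known, and most genes change between these stages. Beside 71.1% and 67.3% of all genes called, the numbers called are no result about the lists, and the directions and medians are given. The shares of all genes that fell or rose were not set beside the counts by direction.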
